A study of Homo sapiens with 5 samples.

Results

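The transcripts of 7 human chromobox genes were followed across 5 HEK293T RNA-seq libraries. They comprised the 3 heterochromatin protein 1 (HP1) genes CBX1, CBX3 and CBX5, and the 4 Polycomb genes CBX2, CBX6, CBX7 and CBX8, out of 19716 genes with reads in at least 1 library. The members were picked by gene symbol, and the set was selected on CBX5, which was noticed for its low level in cells carrying the DNMT3A and DNMT3B fusions relative to those carrying the DNMT1 and EGFP fusions. Differences of the members between those pairs of libraries are therefore given as a description and were not tested. All 7 members had reads in all 5 libraries, from 242 reads (CBX7, DNMT1 fusion) to 11993 reads (CBX5, pUC19).

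HEK293T is an immortalised human embryonic kidney line. In 4 groups, the cells were transfected for 48 hours with 5 sgRNAs directed at the uPA (PLAU) promoter together with a catalytically dead Cas9 joined to blue fluorescent protein and to a further domain, namely DNMT3A (dCas9-BFP-DNMT3A), DNMT3B (dCas9-BFP-DNMT3B), DNMT1 (dCas9-BFP-DNMT1) and EGFP (dCas9-BFP-EGFP). The DNMT parts are catalytic domains of DNA methyltransferases, and EGFP carries no methyltransferase. In the study, uPA promoter methylation was significantly above pUC19 with the DNMT3A and DNMT3B fusions, but not with those of DNMT1 or EGFP. The fifth group received the cloning plasmid pUC19, also for 48 hours. The plasmid amount was 1 µg in all 5 groups. All 4 fusion groups thus share dCas9-BFP and the uPA sgRNAs, and the effects of these cannot be told apart in a comparison with pUC19. According to the labels, RNA came from cells sorted for BFP in all 5 groups. As pUC19 carries no BFP gene, the gate applied to the control is unclear. Each group was 1 library, and no value below has a biological replicate.

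Chromobox proteins carry a chromodomain, a fold that binds methylated lysines of histone H3. HP1 proteins read methylated lysine 9 and compact silent heterochromatin, where they recruit further H3K9 methyltransferases. The Polycomb CBX proteins read methylated lysine 27, which is written by Polycomb repressive complex 2 (PRC2), and each sits as an interchangeable subunit in canonical Polycomb repressive complex 1 (PRC1). DNA methylation and H3K9 methylation often mark the same silent chromatin, whereas Polycomb complexes commonly occupy unmethylated CpG islands.

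Library depth ranged from about 26250000 reads assigned to genes (EGFP fusion) to about 36140000 (pUC19), so that 3 reads, the upper limit of a count of 0, correspond to between 0.083 and 0.114 RPM (reads scaled to the library total). Targeted PLAU had 106 reads in pUC19 and between 1 and 6 in the 4 fusion libraries, and each of DNMT1, DNMT3A and DNMT3B was at its highest in the library named after it. All 5 fixed markers of the HEK293T line were present in every library, with a summed level of 700.1 to 1128 TPM (reads scaled by gene length and library, so that levels of different genes can be compared), and 8 markers of other cell types summed to between 5.17 and 9.87 TPM. Among the 5, IRS4 was at 395.9 TPM in pUC19 and 66.3 to 76.5 in the fusion libraries, and NEFM at 193.0 and 34.3 to 60.2, so these line markers also set pUC19 apart in the comparison used for CBX3 and the Polycomb members, and their part in it was not tested. VIM was at 437.4 TPM in pUC19 and 463.4 to 599.2 in the fusion libraries, while PAX2 and KRT18 lay on both sides of pUC19. COL1A1 was the highest of the 8, and the leukocyte marker CD3E was at 0 in all 5 libraries. Against pUC19, the median gene of at least 1 TPM lay at a log2 ratio of -0.14 in the DNMT1 fusion library and within 0.02 of 0 in the other 3.

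CBX5 encodes HP1α. It lies on chromosome 12 from 54624726 to 54673917 on the minus strand (GRCh37), and its gene model of 11723 bp is longer than all but 1.06% of the 13921 genes with at least 1 TPM on average. Its main start faces that of HNRNPA1, a splicing regulator, 60 bp away on the opposite strand. The promoters of CBX5, CBX3 and CBX6 are shown because the results below turn on these members. Promoters of 300 bases, from 250 before to 50 after the start, were available from RefSeq (GRCh38.p14) for 5 of the 7 members, the exceptions being CBX2 and CBX8. The sequences run 5′ to 3′ on the strand of the gene, and capitals mark each CG dinucleotide, the substrate of the DNMT domains.
CBX5, chr12:54280073-54280372, minus strand: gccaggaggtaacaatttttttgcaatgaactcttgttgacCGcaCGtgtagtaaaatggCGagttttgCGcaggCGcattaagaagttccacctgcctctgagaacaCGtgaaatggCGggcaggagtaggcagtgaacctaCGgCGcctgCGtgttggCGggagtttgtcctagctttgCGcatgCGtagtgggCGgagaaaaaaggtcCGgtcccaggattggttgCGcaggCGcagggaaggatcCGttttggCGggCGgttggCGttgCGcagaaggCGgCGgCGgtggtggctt
CBX3, chr7:26201193-26201492, plus strand: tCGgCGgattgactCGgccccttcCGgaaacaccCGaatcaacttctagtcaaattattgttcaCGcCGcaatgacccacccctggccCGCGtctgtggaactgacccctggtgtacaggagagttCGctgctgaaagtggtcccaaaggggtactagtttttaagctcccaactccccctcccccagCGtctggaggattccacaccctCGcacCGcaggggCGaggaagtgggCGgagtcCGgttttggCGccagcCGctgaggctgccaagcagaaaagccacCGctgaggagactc
CBX6, chr22:38872167-38872466, minus strand: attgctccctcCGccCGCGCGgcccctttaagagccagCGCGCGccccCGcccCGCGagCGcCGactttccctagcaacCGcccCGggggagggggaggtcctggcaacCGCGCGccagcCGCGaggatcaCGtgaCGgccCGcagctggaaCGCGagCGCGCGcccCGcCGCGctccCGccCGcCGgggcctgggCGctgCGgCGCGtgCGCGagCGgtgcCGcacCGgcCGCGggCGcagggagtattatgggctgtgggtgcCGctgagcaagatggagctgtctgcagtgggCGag

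The CBX5 window held 25 CG dinucleotides, that of CBX3 held 19 and that of CBX6 held 47. Those of CBX1 and CBX7 held 38 and 50. The median of 35116 promoters in the table was 14, so all 5 windows lay above it. A pair of further CBX5 starts in the table, downstream of the first, held 4 and 6. The E-box CACGTG, which is its own reverse complement, occurred in the windows of CBX5 and CBX6 and in 7.26% of all promoters. Of 2 E2F-type motifs searched on both strands, TTTGGCGC occurred in the CBX3 window and in 0.652% of all promoters, and TTTCCCGC in none of the 5 members and 1.63% of all. DNA methylation of these promoters was not analysed here.

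CBX5 was far lower with the DNMT3 fusions than with the others. It was at 81.2 TPM in the EGFP fusion library, 69.6 in that of DNMT1, 64.2 in pUC19, 32.6 with DNMT3B and 28.2 with DNMT3A. The 3 libraries without a DNMT3 domain were all high, and the DNMT3A and DNMT3B libraries were both low, with no overlap. The mean over the DNMT3A and DNMT3B libraries was 30.4 TPM against 75.4 TPM over those of DNMT1 and EGFP, a 2.48-fold lower level, or a log2 difference of -1.30. Within each pair the libraries were closer, at a log2 difference of -0.21 for DNMT3A minus DNMT3B and -0.22 for DNMT1 minus EGFP. Reads covered 96.15% to 99.59% of the length of the CBX5 model in every library.

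Length and base composition were set beside this result, and their part in it was not tested. Among all genes of at least 1 TPM, the median log2 difference between the same pairs was 0.06, whereas among the 320 genes longer than 10000 bp it was -0.07, and 31.6% of these long genes were lower in both DNMT3 libraries without overlap, against 23.1% of the shorter ones. CBX5, with a transcript GC content of 41.8% against a median of 49.0% over 12632 genes, was at -1.11 after removal of a smooth GC and length trend, which was -0.20 at its length and GC content. A difference at or below that of CBX5 was reached by 79 genes including CBX5. These were 2 of the 320 genes longer than 10000 bp and 77 of the 13601 others.

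The same CBX5 levels were then set against pUC19 by an exact test on the read counts of 2 libraries, with genes called at an adjusted p of at most 0.001 and a change of at least 2-fold. These comparisons share the pUC19 library with each other and the fusion libraries with the contrast that chose CBX5, and the test compares libraries and not conditions. In the DNMT3A library CBX5 was 2.27-fold lower than in pUC19 (95% counting interval 2.19 to 2.35) and was called. With DNMT3B it was 1.97-fold lower (1.90 to 2.04), just short of the fold required. In the DNMT1 library it lay 1.08-fold above pUC19 (1.06 to 1.11), and in the EGFP library 1.26-fold above (1.23 to 1.30). After removal of the GC and length trend, the log2 ratio moved from -1.18 to -0.95 with DNMT3A and from -0.97 to -0.93 with DNMT3B, so neither then reached 2-fold.

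The other HP1 genes differed less between the libraries. CBX1 encodes HP1β and lies on chromosome 17 from 46147414 to 46178840 on the minus strand (GRCh37). It was the steadiest member, at 114.1 TPM in the DNMT1 library, 118.3 with DNMT3A, 114.2 with DNMT3B, 127.4 with EGFP and 120.0 in pUC19, so that the highest library was 1.12-fold above the lowest. The pairs of fusion libraries overlapped, and the sign of its small difference between the DNMT1 library and pUC19 depended on the scaling (log2 -0.07 in TPM and 0.05 with TMM factors).

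CBX3 encodes HP1γ, which is also found over transcribed gene bodies, and lies on chromosome 7 from 26240782 to 26253227 on the plus strand (GRCh37). Its level was 171.3 TPM in pUC19 and 120.5 with EGFP, 114.4 with DNMT1, 101.7 with DNMT3B and 100.4 with DNMT3A. All 4 fusion libraries were thus below pUC19, by 1.42-fold (EGFP, 95% counting interval 1.36 to 1.48) to 1.71-fold (DNMT3A, 1.63 to 1.78), and none reached the fold needed for a call. Its start region overlaps the first part of HNRNPA2B1 on the opposite strand, and since no source used here gives a strand setting for the counting, reads of the overlap cannot be told apart. HNRNPA2B1 was at 567.0 to 702.8 TPM. The pseudogene CBX3P2 had between 1 and 19 reads against 2668 to 6366 for CBX3.

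The Polycomb members were at higher levels in the fusion libraries than in pUC19. CBX6, the most abundant of them, lies on chromosome 22 from 39257427 to 39268254 on the minus strand (GRCh37). It was at 56.3 TPM in pUC19, 96.1 with DNMT1, 141.9 with EGFP, 147.0 with DNMT3A and 152.6 with DNMT3B. Every fusion library lay above pUC19, and DNMT1 was the lowest of the 4. The ratio to pUC19 was 1.71 with DNMT1 (95% counting interval 1.63 to 1.79), 2.52 with EGFP (2.41 to 2.64), 2.61 with DNMT3A (2.50 to 2.73) and 2.71 with DNMT3B (2.59 to 2.84), and the last 3 were called.

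CBX2, on chromosome 17 from 77751947 to 77761782 on the plus strand (GRCh37), can compact nucleosomes through a positively charged region. It was at 55.2 TPM in pUC19, 64.0 with DNMT1, 84.3 with EGFP, 103.3 with DNMT3B and 109.7 with DNMT3A. Its ratio to pUC19 with DNMT3A was 1.99 (1.91 to 2.07), just under the fold required in TPM and just over it with TMM scaling (log2 0.99 and 1.01). CBX8, its neighbour on the minus strand from 77765931 to 77775482, was at 16.6 TPM in pUC19, 18.2 with EGFP, 21.1 with DNMT3B, 23.2 with DNMT3A and 24.4 with DNMT1. It was the member highest with DNMT1, and its 1.10-fold ratio for EGFP had a counting interval of 0.946 to 1.27.

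CBX7, known as a repressor of the INK4A/ARF locus, lies on chromosome 22 from 39516172 to 39548685 on the minus strand (GRCh37) and was the least abundant member. It was at 3.99 TPM in pUC19, 4.93 with DNMT1, 5.56 with EGFP, 6.69 with DNMT3A and 8.62 with DNMT3B, resting on 242 to 385 reads. The DNMT3B ratio of 2.16 (1.84 to 2.55) was called at an adjusted p of 4.13e-18 by the exact test. The call was lost with a pseudocount of 1 TPM (log2 0.95 in place of 1.09), after removal of the GC and length trend (0.89) and with an assumed coefficient of variation of 0.2 (edgeR adjusted p = 0.126).

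**Figure D1:**
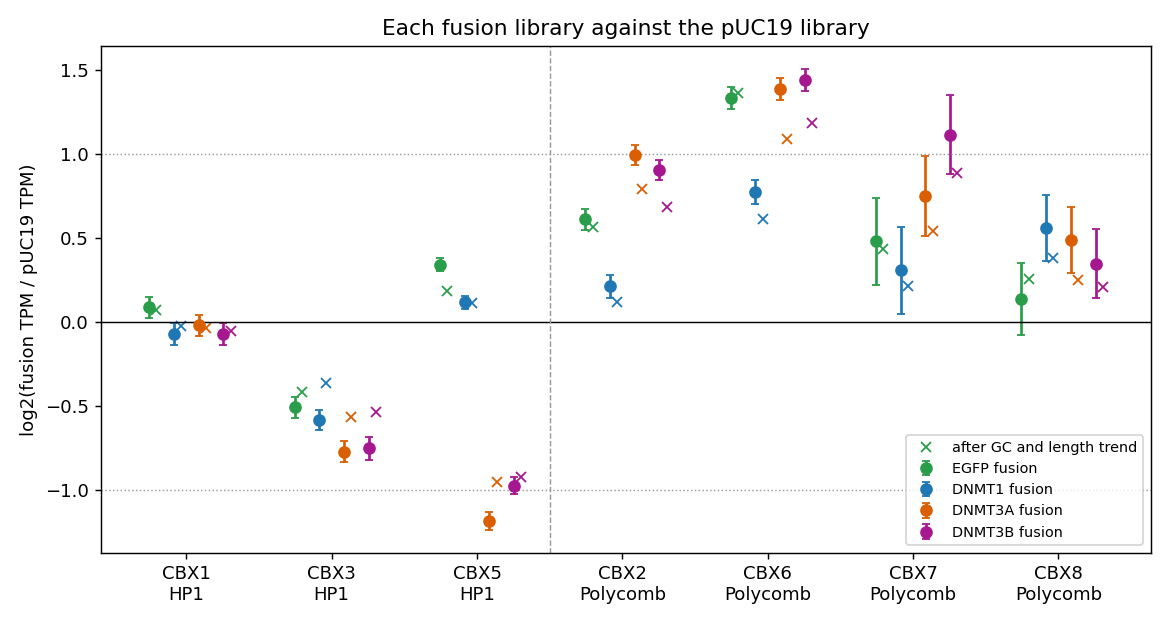
Log2 ratio of each fusion library to the pUC19 library (y axis) for each member, with 95% counting intervals, and crosses for the value after removal of the GC and length trend; dotted lines mark 2-fold. All 16 Polycomb points lie above 0 with and without the trend, while CBX5 lies below 0 for DNMT3A and DNMT3B and above 0 for DNMT1 and EGFP.

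By the exact test, 2 of the 7 members were called with DNMT3A (CBX5 lower, CBX6 higher), against 9.36% of all genes tested. As CBX5 was selected on its low level in this library, its call is no result and nothing is read from that count. With DNMT3B 2 were called (CBX6 and CBX7 higher), against 8.76%, and with EGFP 1 (CBX6 higher), against 5.70%. With DNMT1 the exact test called 0 members, against 5.16% of genes, although 6 had an unadjusted p under 0.05. None of these calls held in edgeR's exact test with an assumed coefficient of variation of 0.2, which called 0 members in each of the 4 comparisons. Its adjusted p was 0.0890 for CBX5 with DNMT3A, 0.126 for CBX7 with DNMT3B and, for CBX6, 0.0255 with DNMT3A, 0.0210 with DNMT3B and 0.0762 with EGFP. Between the DNMT3A and DNMT3B libraries, and between those of DNMT1 and EGFP, 0 members were called by either test, against 0.215% and 1.44% of genes by the first, with 5 members at an unadjusted p under 0.05 in each. The exact p-values compare a gene's share of all reads, whereas TPM is scaled to a total in which each gene's reads are divided by its length. The p-values can therefore differ from what the interval of a TPM ratio shows. Reads of a DNMT fusion transcript enter both totals. At this depth counting error is small, and these unadjusted values carry nothing on the spread between cultures, which 1 library per group cannot show.

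All 4 Polycomb members were above pUC19 in every fusion library, as were 23.7% of the genes of at least 1 TPM on average, and CBX3 alone was below in every one, as were 32.7%. CBX1 and CBX5 lay on both sides. The mean log2 difference between the 4 fusion libraries and pUC19 was 1.23 for CBX6, 0.68 for CBX2, 0.65 for CBX7, 0.38 for CBX8, -0.02 for CBX1, -0.42 for CBX5 and -0.65 for CBX3. A fit of the 4 fusions against pUC19 with edgeR's quasi-likelihood test took its spread from the 4 different constructs, which are not replicates. It called 0 of the 7 members at an adjusted p under 0.05, against 0.737% of genes. At an unadjusted p under 0.05 there were 3 members (CBX2, CBX3 and CBX6). DESeq2 called 1 member (CBX6) among 992 genes called, beside 118 genes in the edgeR fit. CBX6 had a fitted log2 difference of 1.30 and an adjusted p of 0.0574 in the edgeR fit, with a range of 0.000218 (DESeq2) to 0.0845 over the alternatives. CBX3 followed at -0.60 (adjusted p = 0.160) and CBX2 at 0.75 (adjusted p = 0.2003) in the same fit.

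Base composition separates the families as well. The transcripts of the Polycomb members had a GC content of 59.3% to 64.1%, and those of the HP1 members 39.5% to 47.6%, on either side of the median gene. The smooth GC and length trend against pUC19 lay between -0.12 and 0.29 (log2) at the Polycomb members and between -0.23 and 0.15 at the HP1 members. Once it was removed, all 16 Polycomb values remained above pUC19, and CBX6 was at 0.61 with DNMT1, 1.36 with EGFP, 1.09 with DNMT3A and 1.18 with DNMT3B.

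Between the pairs of fusion libraries, CBX2, CBX6 and CBX7 were higher with DNMT3A and DNMT3B than with DNMT1 and EGFP without overlap, as were 34.9% of genes, and CBX3 and CBX5 were lower without overlap, as were 23.3%. As the members were selected on this contrast, no test is given and nothing is read from these shares. The log2 difference was 0.54 for CBX2, 0.53 for CBX7, 0.36 for CBX6, 0.07 for CBX8, -0.05 for CBX1, -0.22 for CBX3 and -1.30 for CBX5. After removal of the trend, CBX6 was at 0.13 and CBX8 at -0.10, while CBX2 and CBX7 were both at 0.38. The separation of CBX6 was narrow, as the counting intervals of DNMT3A (143.3 to 150.7 TPM) and EGFP (138.1 to 145.75 TPM) overlapped. With the trend against pUC19 removed, CBX6 was higher with EGFP (1.36) than with DNMT3A (1.09) or DNMT3B (1.18), so its pairs then overlapped.

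**Figure D2:**
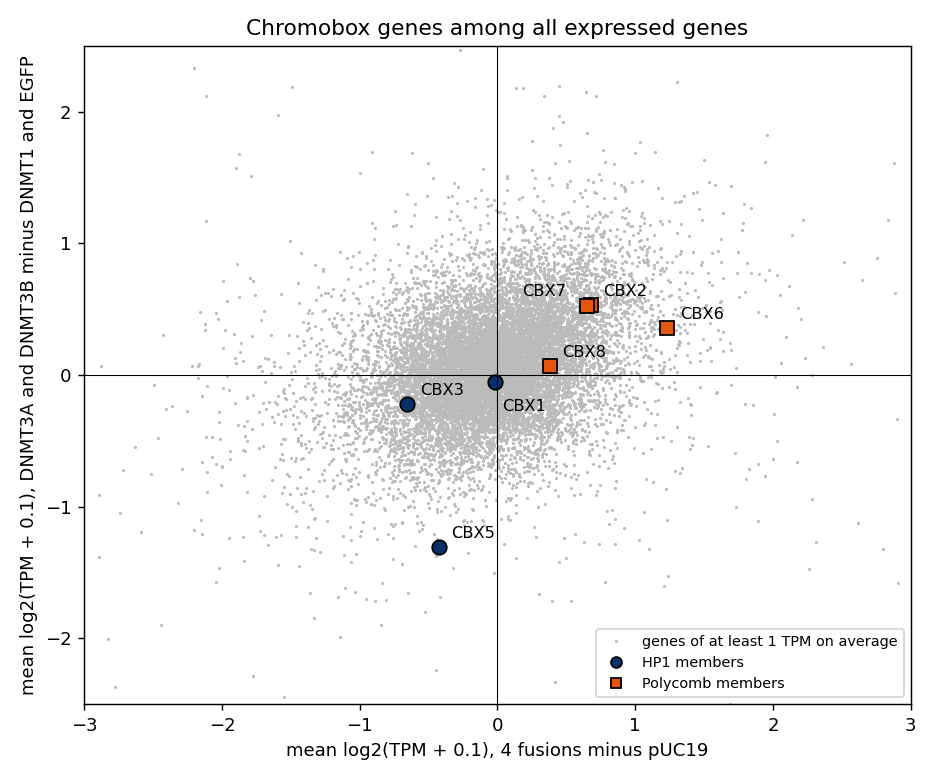
Each of 13921 genes by its mean log2(TPM + 0.1) difference between the 4 fusions and pUC19 (x axis) and between the DNMT3A and DNMT3B libraries and those of DNMT1 and EGFP (y axis), with 46 genes outside the axes. CBX6 is farthest right among the members at 1.23, and CBX5 lowest at -1.30, while CBX1 is near the centre.

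Because TPM is scaled by length, the members could be summed and ordered within a library. In pUC19 the 3 HP1 genes summed to 355.5 TPM and the 4 Polycomb genes to 132.1 TPM, and HP1 made up 72.9% of all chromobox transcripts counted here. That share was 61.1% with DNMT1 (298.0 and 189.4 TPM), 56.8% with EGFP (329.0 and 249.9 TPM), 46.5% with DNMT3B (248.5 and 285.6 TPM) and 46.3% with DNMT3A (246.9 and 286.6 TPM). HP1 transcripts were thus the larger sum in 3 libraries and the smaller in the DNMT3A and DNMT3B libraries. As CBX5 was selected on its low level with DNMT3A and DNMT3B, nothing is read from this split. Without CBX5, the HP1 sum with EGFP was 247.9 TPM, just below the Polycomb sum of 249.9 TPM. It stayed above the Polycomb sum with DNMT1 (228.5 TPM) and in pUC19 (291.4 TPM). CBX5 made up 24.7% of the HP1 sum with EGFP, 23.3% with DNMT1, 18.0% in pUC19, 13.1% with DNMT3B and 11.4% with DNMT3A. The sum of CBX1 and CBX3 alone was 215.9 to 247.9 TPM in the 4 fusion libraries and 291.4 TPM in pUC19.

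The order of levels changed accordingly. In pUC19 it ran from CBX3 through CBX1, CBX5, CBX6, CBX2 and CBX8 to CBX7, with CBX6 and CBX2 inside each other's counting intervals. CBX6 came first in the EGFP, DNMT3A and DNMT3B libraries, followed by CBX1. In the DNMT1 library CBX3 and CBX1 led at 114.4 and 114.1 TPM, which were indistinguishable by counting error, with CBX6 next. With DNMT3B, CBX2 and CBX3 lay inside each other's counting intervals. CBX8 and CBX7 were the lowest members in all 5 libraries. Whether a lower level reflected less RNA per cell or fewer expressing cells cannot be told apart in bulk RNA.

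Genes that write, erase or share these marks were counted from fixed lists, of which 81 had reads. These hold the PRC1 partners (20 genes), PRC2 (11), H3K9 methyltransferases and their cofactors (11), proteins that bind HP1 (15), H3K9 and H3K27 demethylases (10) and other chromodomain genes (14). Against pUC19, the exact test called 4 of the 81 with DNMT1 (1 higher, 3 lower), 4 with DNMT3A (2 higher, 2 lower), 8 with DNMT3B (5 higher, 3 lower) and 5 with EGFP (2 higher, 3 lower). Their median log2 ratio was -0.17, 0.16, 0.21 and 0.06, beside -0.15, -0.06, -0.05 and -0.003 over all genes tested. The shares called were thus 4.94%, 4.94%, 9.88% and 6.17%, near or below the shares of all genes given above.

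The level of RBBP7, a histone-binding subunit of PRC2, was lower than in pUC19 in all 4 fusion libraries. It was at 548.9 TPM in pUC19 and at 257.2 (DNMT3A), 242.6 (DNMT3B), 222.8 (DNMT1) and 220.2 (EGFP), and was called lower in all 4 exact comparisons. In edgeR's fit of the 4 fusions against pUC19 its log2 difference was -1.17 with an adjusted p of 0.0261, and it was the 1 list gene of 81 called there. SETDB2, an H3K9 methyltransferase, was at 7.12 TPM in pUC19 and at 3.49 (EGFP), 3.24 (DNMT1), 3.13 (DNMT3B) and 2.82 (DNMT3A). It was called lower in all 4 exact comparisons, and in the edgeR fit it had a log2 difference of -1.11 and an adjusted p of 0.0663.

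Further called genes, outside the naming rule, were named after their values were seen. SUV39H1, the H3K9 methyltransferase that docks on HP1, and the demethylase KDM4A were called higher with DNMT3A, DNMT3B and EGFP. SENP7, a SUMO protease that binds HP1α, was called lower with DNMT1, DNMT3B and EGFP. KDM6B was called higher with DNMT1, and AHDC1 and BCORL1 with DNMT3B. CDYL2 was the 1 list gene of 81 called between the DNMT3A and DNMT3B libraries, against 0.215% of all genes tested. Its level was low, at 1.33 TPM with DNMT3A and 3.30 TPM with DNMT3B.

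Between the DNMT3A and DNMT3B fusions and those of DNMT1 and EGFP, edgeR's quasi-likelihood fit called 11 of the 81 (10 higher, 1 lower) at an adjusted p under 0.05, against 11.0% of genes. The spread in that fit came from pairs of different constructs, which are not replicates, so its p-values do not measure the spread between cultures. PHC2, which polymerises PRC1 through its SAM domain, was at 64.4 TPM with DNMT1 and 61.2 with EGFP and at 118.9 with DNMT3A and 136.6 with DNMT3B, beside 74.2 in pUC19. Its fitted log2 difference was 0.97 with an adjusted p of 0.00532. PHF1, a PRC2 accessory factor, was at 13.4 and 11.4 TPM with DNMT1 and EGFP and at 21.4 and 21.2 with DNMT3A and DNMT3B, for a log2 difference of 0.72 and an adjusted p of 0.0346. The other 9 called genes had fitted differences under 1.5-fold. The number of list genes called depended on the settings, as did the number of all genes called. Without the filter on low counts, 2 list genes were called among 1052 genes. By DESeq2 18 were called among 2146 genes, beside 11 among 1694 in the main fit. Per list, the calls were 1 higher among PRC1 partners, 2 in PRC2, 1 among H3K9 methyltransferases, 3 among HP1 binding proteins with 1 lower, 1 among demethylases and 2 among other chromodomain genes.

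The genes facing the starts of the HP1 members were set beside them. HNRNPA1 was at 1125 TPM with DNMT1, 941.9 with DNMT3A, 862.2 with DNMT3B, 980.1 with EGFP and 1199 in pUC19. Between the pairs of fusion libraries it differed by -0.22 (log2), beside -1.30 for CBX5. HNRNPA2B1, facing CBX3 at 367 bp, differed by -0.24 between the 4 fusions and pUC19 and by -0.01 between the pairs, beside -0.65 and -0.22 for CBX3. SNX11, facing CBX1 at 1879 bp, was at 25.8 TPM in pUC19 and 37.5 to 69.7 TPM in the fusion libraries, whereas CBX1 varied by 1.12-fold.

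The genes whose profile was most like CBX5 were sought over the 5 libraries among 10934 genes of at least 5 TPM on average, by the root mean square difference of centred log2 levels. METTL7A was nearest at 0.0286, followed by AHNAK at 0.0665, PRKDC at 0.0829, FRAS1 at 0.0880 and SCARNA12 at 0.123. METTL7A was at 15.1 TPM with DNMT1, 6.41 with DNMT3A, 7.33 with DNMT3B, 17.8 with EGFP and 14.4 in pUC19. AHNAK, PRKDC and FRAS1 have gene models of 18836, 13509 and 15643 bp. METTL7A has one of 3390 bp and SCARNA12, a small Cajal body-specific RNA, one of 270 bp. The 5 points of each profile share the libraries and their depth, and the likeness is a description without a test.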

How the data were processed

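Poly(A)-selected RNA of 5 transfected HEK293T groups, 1 library each, was sequenced. The authors deposited, per gene, read counts, TPM values and the percent of the gene length covered, mapped to hg19 per the labels; the counting tool and strand setting are not given in the sources used here. TPM recomputed from the deposited counts and lengths equalled the deposited TPM. A gene missing from a library's table was taken as 0 reads. Gene positions came from GENCODE v44 lifted to GRCh37, and GC content from its transcripts (89.3% of genes, all 7 members).

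Pairs of libraries were compared by a two-sided exact conditional binomial test on counts with Benjamini-Hochberg adjustment over all genes with a read in either library. Genes were called where the adjusted p was 0.001 or less and TPM + 0.1 differed at least 2-fold. Both thresholds are those of the study, and the test and the pseudocount of 0.1 TPM were chosen here. Groups of libraries were compared with edgeR 4.0.16 (TMM, filterByExpr, quasi-likelihood F test, adjusted p under 0.05) in R 4.3.3, with DESeq2 1.42.0 as an alternative. Scripts were tested on simulated data. Intervals are 95% counting intervals and cover counting error only, and PCR duplicates were not marked by molecular identifiers. The GC and length trend was a loess fit (span 0.3), centred on its median over genes of at least 1 TPM.

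The members and gene lists were chosen with earlier results of these data known. All 7 members were named. List genes were named where called in the fit of the 4 fusions against pUC19, called between the pairs of fusions with at least a 1.5-fold difference, or called in all 4 exact comparisons in 1 direction. A further called list gene is counted but not reported here. The nearest genes to CBX5 and divergent starts within 2000 bp were named by the rules given with them. Samples of 1 group were not replicated, so p-values measure differences between libraries. The alternatives comprised another pseudocount, TMM scaling, filters, thresholds, thinning to the smallest library, an assumed coefficient of variation of 0.2, DESeq2, and leaving out each fusion. The smooth trend in the comparisons with pUC19 was added after seeing the data.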

Additional observations from a re-analysis of the deposited data

Results flagged for a closer look

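CBX5 was flagged because the fusion libraries lay on opposite sides of pUC19. Both the DNMT3A and the DNMT3B library were below the control and both the DNMT1 and the EGFP library above it, with a log2 difference of -1.30 between the pairs. The difference was not tested, since CBX5 was selected on this contrast.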

How the results depend on the processing

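Each group was 1 library, and the spread between cultures could not be measured. No paired analysis was possible because no group had a second replicate. With a pseudocount of 1 TPM, the genes called against pUC19 fell to 540 with DNMT1, 1143 with DNMT3A and 648 with EGFP, and the members called with DNMT3B to 1, as CBX7 moved to a log2 ratio of 0.95. Within the pairs, DNMT3A against DNMT3B gave 20 genes and DNMT1 against EGFP 130 with that pseudocount, and 192 and 586 with an adjusted p of at most 0.05. An assumed coefficient of variation of 0.2 left 32, 131, 107 and 58 genes for DNMT1, DNMT3A, DNMT3B and EGFP against pUC19, 3 and 7 within the pairs, and 0 members with DNMT3A, DNMT3B and EGFP; CBX1 then changed sign with DNMT1 (0.0600) and DNMT3A (0.00846), as it did with DNMT1 under TMM scaling (0.0549).

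For the 4 fusions against pUC19, 252 genes were called without a filter and 992 by DESeq2, each with 1 member, CBX6. Leaving out 1 fusion gave 65 (without DNMT3A) to 95 genes, with 78 without EGFP, and 0 to 1 members, the 1 being CBX6 without DNMT1 (edgeR adjusted p = 0.0454). Between the pairs of fusions, 1052 genes and 2 list genes were called without a filter, and 2146 genes and 18 list genes by DESeq2. Removing the GC and length trend moved CBX5 to -1.11 and reversed CBX8 to -0.10. In RPM, not divided by length, the HP1 share was 67.8% with DNMT1, 63.8% with EGFP and 75.8% in pUC19. The cause of these changes was not tested.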
